A study of Mus musculus with 12 samples.

Results

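The integrins, laminins and nidogens of the mouse retina were followed over the first days after deletion of Otx2 in photoreceptors (PRs). Protein-coding genes were taken when their symbol began with Itga or Itgb (integrin subunits, leaving out binding proteins and integrin-like genes), with Lama, Lamb or Lamc and a number (laminin chains), or was Nid1 or Nid2 (nidogens), and when at least 10 reads were counted in at least 3 of the 12 libraries. Of 40 genes with such names, 36 reached this minimum: 23 integrin subunits, 11 laminin chains and both nidogens. They stand among 54146 genes counted, of which 18628 held enough reads to be tested, all 36 included. The 4 names below the minimum were Itgad, Itgax, Itgb2l and Itgb6, with at most 2, 12, 1 and 14 counts in any mouse, and Itgax and Itgb6 each reached 10 counts in 1 library. Just inside it was Itgb7, with 10 counts or more in 5 libraries and 6 to 20 counts per mouse.

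Integrins are receptors made of an alpha and a beta subunit that span the cell membrane and tie the extracellular matrix (ECM) to the cytoskeleton. Laminins are trimers of an alpha, a beta and a gamma chain that polymerise into the sheet of a basement membrane, and nidogens bridge that sheet to the collagen IV network and to perlecan. In the eye such sheets line the vitreal face of the retina, the vessels, the pigment epithelium (RPE), the ciliary epithelium and the lens, whose capsule is a very thick basement membrane.

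Each library held RNA of a whole retina, RPE included, from a different mouse, and each of the 4 conditions had 3 mice, so that p-values measure the spread between mice. The P30 mice (mice 1 to 3) are labelled as controls without ablation, with the source name Control_Crx, and the labels do not say which of the Cre and floxed alleles they carried. The photoreceptor-specific conditional knock-out (cKO) mice were Crx-CreERT2;Otx2 flox/flox animals on a 129/SV background, a cross in which a tamoxifen-activated Cre is driven by Crx regulatory sequences. They received tamoxifen once at P30 and were killed 2, 4 or 8 d later, at P32 (mice 4 to 6), P34 (mice 7 to 9) and P38 (mice 10 to 12). Age, tamoxifen and deletion therefore changed together and cannot be told apart. In such whole-tissue RNA, fewer cells of a type and less RNA per cell cannot be told apart either.

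Counts on genes ranged from 29701483 to 60145034 per mouse, and the 36 members took 0.0393 to 0.0738% of them. Levels are given as CPM, the counts of a gene scaled to a common library size by TMM. The deletion removes an exon and was not described as lowering the transcript, so Otx2 itself is no check of the labels here: it stood at 293 to 328 CPM at P30 and 307 to 377 CPM in the cKO mice. By Xist, all 3 P30 mice were females, as were 2 mice at P32, 1 at P34 and 1 at P38. Defining markers of rods and Müller glia were present in every library. Libraries also differed in tissue from outside the neural retina: the summed level of 7 lens markers spanned 222 to 37000 CPM, with all 3 P34 mice, P30 mouse 2 and P32 mouse 6 at 604 CPM or less and the other 7 mice at 4578 CPM or more. P32 mouse 4 stood apart on the first principal component, which held 33.7% of the variance.

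Promoters are shown for 2 members on which the results below turn. Nid1 had the largest spread between mice, and Lamb2 was the only member found with a window that held TAATCC, the core letters bound by OTX2 and CRX. RefSeq windows of 250 bases before to 50 bases after the gene start (build GRCm38.p6) were found for 22 of the 36 members, in 24 windows, and Nid2 was among those without one. Letters in capitals mark GGGCGG (the GC box) in Nid1 (chr13:13437352-13437651, plus strand) and TAATCC in Lamb2 (chr9:108479612-108479911, plus strand).
Nid1: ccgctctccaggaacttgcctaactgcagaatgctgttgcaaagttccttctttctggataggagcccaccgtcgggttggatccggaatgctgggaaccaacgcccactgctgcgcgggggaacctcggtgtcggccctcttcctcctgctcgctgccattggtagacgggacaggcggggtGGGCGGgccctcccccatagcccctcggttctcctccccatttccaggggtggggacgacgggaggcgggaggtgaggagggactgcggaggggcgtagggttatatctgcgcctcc
Lamb2: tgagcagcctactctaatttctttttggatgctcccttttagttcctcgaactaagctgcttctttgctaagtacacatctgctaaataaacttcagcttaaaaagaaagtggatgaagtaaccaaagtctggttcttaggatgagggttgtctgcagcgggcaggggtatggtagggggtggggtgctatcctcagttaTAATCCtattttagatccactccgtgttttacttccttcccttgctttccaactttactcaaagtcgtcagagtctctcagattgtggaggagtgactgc
The Nid1 match began 67 bases before the RefSeq start of the gene, and the Lamb2 match 50 bases before it. The gene starts in GENCODE M21 lie upstream of the RefSeq starts, at 13437551 for Nid1 and 108479736 for Lamb2, so that the Lamb2 match is inside the gene by that annotation. On either strand, TAATCC was in 4.17% of the member windows and in 7.06% of all 32851 windows. GGGCGG was in 54.2% of the member windows, from 12 members, and in 35.7% of all. TATAAA was in none of the 24 and in 13.6% of all. The 3 motifs were searched independently of one another and chosen after the expression values were seen, and these matches describe letters only.

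Compared per kilobase of exon, the members' levels spanned more than 2 orders of magnitude, and 3 genes took 52.7% of the sum over members. Itgb1, the beta subunit shared by most matrix-binding integrins, was highest with a mean of 17.7 CPM per kb over the 12 mice (range 14.5 to 24.3). Itgb5, the partner of the alpha v subunit, followed at 16.4 CPM per kb (10.6 to 25.3), a range that overlapped with that of Itgb1. Nid1 came next at 9.75 CPM per kb, but its range ran from 0.373 to 29.5, so that its place in the order differed between mice. Itgav, the alpha v subunit that binds RGD sequences in vitronectin and fibronectin, stood at 5.71 CPM per kb (4.52 to 6.68).

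Among the laminins, Lamc1 (4.34 CPM per kb), Lamb2 (4.24) and Lamb1 (3.51) were highest, and Lama5 (1.99) and Lama1 (1.30) led the alpha chains. This order depends on the length used, here the exons of all transcripts merged. That length was 9917 bases for Lamb1, with 5784 in its longest transcript. It was 8272 and 7622 bases for Lamc1, and 6082 and 5629 for Lamb2. The laminin receptor subunits Itga3 and Itga6 stood at 4.19 and 1.74 CPM per kb, Itgb8, another partner of alpha v, at 3.77, and Itga9, a receptor for tenascin and other matrix proteins, at 1.35. These 13 genes were the members above 1 CPM per kb. A further 12 members lay between 0.2 and 1 CPM per kb, among them Nid2 (0.786), Itga4 (0.884) and Itga7 (0.771). The bounds also depend on the length: merged exons and longest transcript were 8092 and 4020 bases for Itga7, and 13978 and 9767 for Itga4. The lowest 11, all under 0.2 CPM per kb, included the 5 leukocyte integrin subunits (Itgal, Itgam, Itgae, Itgb2 and Itgb7) and subunits known from epithelia (Itgb4 and Lamb3).

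**Figure D1:**
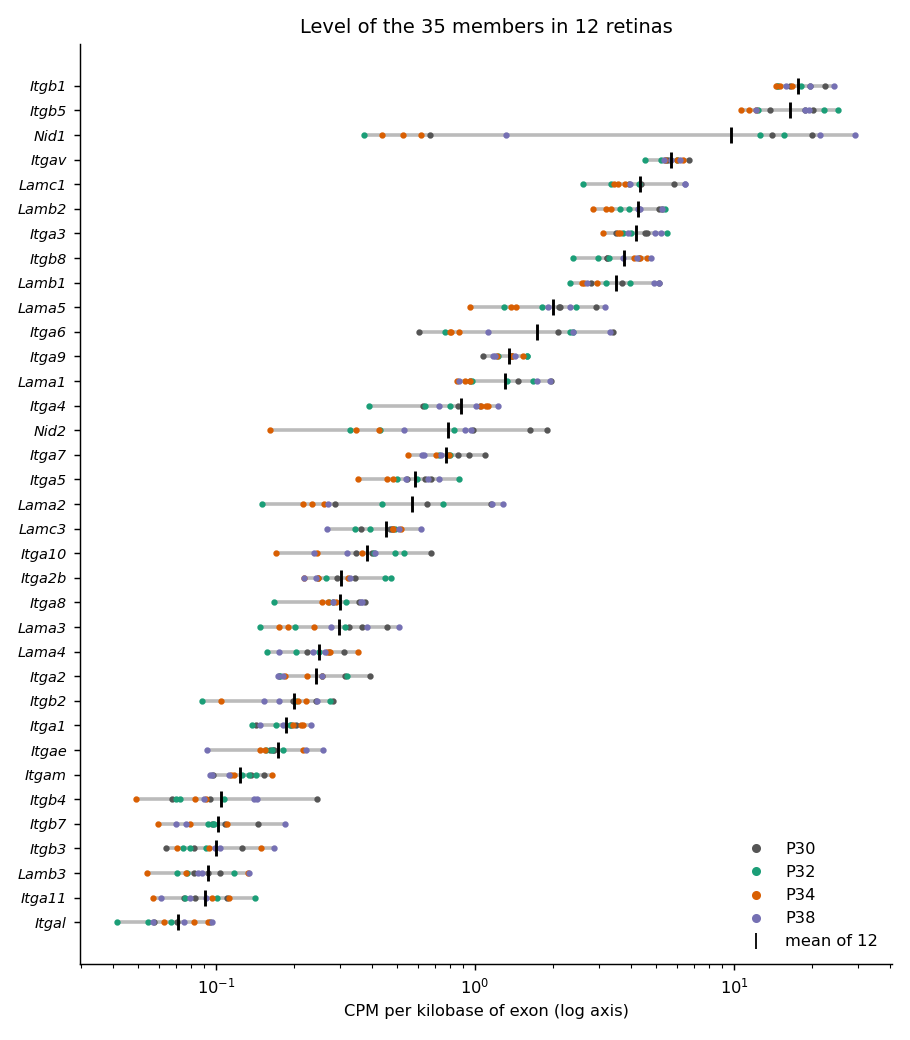
Level of 35 of the 36 members per kilobase of exon (horizontal log axis, CPM per kb). Points are the 12 mice, coloured by condition, grey bars span the lowest to the highest mouse and black ticks are means. Nid1 spans from 0.373 to 29.5, a far wider range than its neighbours Itgb5 and Itgav.

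Over the 12 mice, 9 members varied by less than 2-fold between the lowest and the highest mouse, 22 by 2- to 4-fold and 5 by more: Nid1 (79.1-fold), Nid2 (11.8-fold), Lama2 (8.52-fold), Itga6 (5.59-fold) and Itgb4 (5.03-fold). The steadiest were Itgav (1.48-fold) and Itga9 (1.48-fold).

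At P32, 2 d after tamoxifen, no member passed the test against P30. To be called, a member needed an adjusted p no higher than 0.05 (edgeR's quasi-likelihood test, Benjamini-Hochberg over all 18628 genes) and a log2 difference of 0.5 or more in either direction. By this rule 0 of 36 members were called lower or higher, and so were 0 of all genes (background 0.0%). At an unadjusted p under 0.05 and the same fold, 2 members were lower (Nid2 and Lama3) and none higher, against a background of 1.77% lower and 1.13% higher among all genes, and DESeq2 called no member (0.0827% lower and 0.0486% higher among the genes to which it gave an adjusted p). All 3 P32 mice were below all 3 P30 mice for 3 members (Itga7, Lama3 and Nid2), as they were for 4.39% of all genes. The median log2 fold change of the members was -0.20, beside -0.0088 over all genes tested, and 26 of 36 members had a negative value, as had 51.5% of all genes. The member median was -0.04 without P30 mouse 3 and -0.34 without P32 mouse 5.

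At P34, 4 d after tamoxifen, Nid2, which encodes the second nidogen, was lower and was the only member called by edgeR. By the same rule 1 of 36 members was called lower and 0 higher, and the background was 0.66% lower (123 genes) and 0.0% higher. DESeq2 called 4 members lower (Nid2, Nid1, Lama5 and Lamb2) and none higher, against 1.58% lower and 0.0641% higher among the genes to which it gave an adjusted p. Nid2 lies on chr14:19751265-19811787 of GRCm38, plus strand. It was at 5.06, 8.42 and 9.83 CPM in P30 mice 1, 2 and 3, and at 2.21, 0.833 and 1.79 CPM in the P34 mice 7, 8 and 9. The highest P34 mouse was below the lowest P30 mouse. The log2 fold change was -2.27 ± 0.44 (SE, 3 mice each), with an adjusted p of 0.0399 by edgeR's quasi-likelihood test. Without P30 mouse 2 or 3, without any of the P34 mice or without P38 mouse 10 or 11, the adjusted p was 0.064 to 0.168 and the log2 fold change -2.58 to -1.95, so the call was lost without any of these 7 mice. With sex in the fit, the value was -2.30 and the adjusted p 0.0852.

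Values of Nid2 at the other cKO ages also lay below those of P30. The P32 mice 4, 5 and 6 had 2.22, 4.29 and 1.70 CPM, and the P38 mice 10, 11 and 12 had 4.97, 4.74 and 2.75 CPM. All 9 cKO mice were thus below all 3 P30 mice, a pattern shared by Itga7 among the members and by 0.478% of all genes tested. The lowest P30 mouse and the highest P38 mouse were close, at 5.06 and 4.97 CPM. By the same edgeR test Nid2 differed from P30 by -1.50 ± 0.42 on the log2 scale at P32 (adjusted p = 0.698) and by -0.90 ± 0.41 at P38 (adjusted p = 0.847), and neither passed.

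Between P30 and P34, markers of several tissues outside the neural retina moved with Nid2, and those of others did not. Summed over 4 ciliary and iris epithelium markers, levels were 31.0 to 36.6 CPM at P30, 16.6 to 35.7 at P32, 8.37 to 12.7 at P34 and 25.9 to 31.5 in P38 mice 10 and 11, with 17.8 in mouse 12. Of these 4 markers, 2 were called lower at P34. Of 5 smooth muscle markers, 4 were called lower at P34, and their sum was 28.9, 179 and 197 CPM in P30 mice 1, 2 and 3 against 9.11 to 13.1 at P34, with Cnn1 at 0 in at least 1 mouse. The sum of 5 pigment cell markers was 115, 816 and 665 CPM in the P30 mice and 37.4 to 53.4 CPM at P34, and 2 of the 5 were called lower. Markers of connective tissue fibroblasts summed to 62.9 to 91.1 CPM at P30 and 25.7 to 40.7 CPM at P34, with 1 of 7 called lower. Dcn among them was at 1.99, 23.7 and 19.0 CPM in P30 mice 1, 2 and 3 and at 4.5 CPM or less in the other mice. Col1a2 and Pdgfra did not have this order. In P30 mice 1, 2 and 3 Col1a2 was at 25.7, 26.3 and 26.3 CPM and Pdgfra at 32.4, 18.5 and 36.0 CPM. In P38 mouse 11 Col1a2 was at 27.2 CPM, and in P38 mouse 10 Pdgfra was at 60.7 CPM. At the other ages these sums did not keep the order of Nid2. Smooth muscle markers summed to 47.4 and 42.5 CPM in P32 mice 4 and 5, above P30 mouse 1. Pigment cell markers summed to 127 CPM and fibroblast markers to 87.4 CPM in P38 mouse 10, both above P30 mouse 1. Corneal epithelium markers summed to 3.089 to 8.59 CPM at P30 and 0.607 to 3.085 CPM at P34, with 1 called lower. Markers of the RPE and of skeletal muscle did not follow Nid2. The sum of 5 RPE markers was 123, 69.7 and 222 CPM in P30 mice 1, 2 and 3 and 120 to 194 CPM at P34, and that of 5 skeletal muscle markers was 5.67 to 46.9 CPM at P30 and 5.14 to 91.9 CPM at P34. The P30 mice 2 and 3, with the highest Nid2 of all 12 mice, were also highest for smooth muscle and pigment cell markers. With the mean log2 CPM of the ciliary and iris markers as a covariate, a term chosen after seeing the data that itself differed between P30 and P34, the log2 fold change of Nid2 at P34 was -0.61 ± 0.66 (edgeR adjusted p = 0.710). With the lens markers as covariate it was -2.003 ± 0.49 (edgeR adjusted p = 0.230). The part of these tissues in the Nid2 result was not tested.

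**Figure D2:**
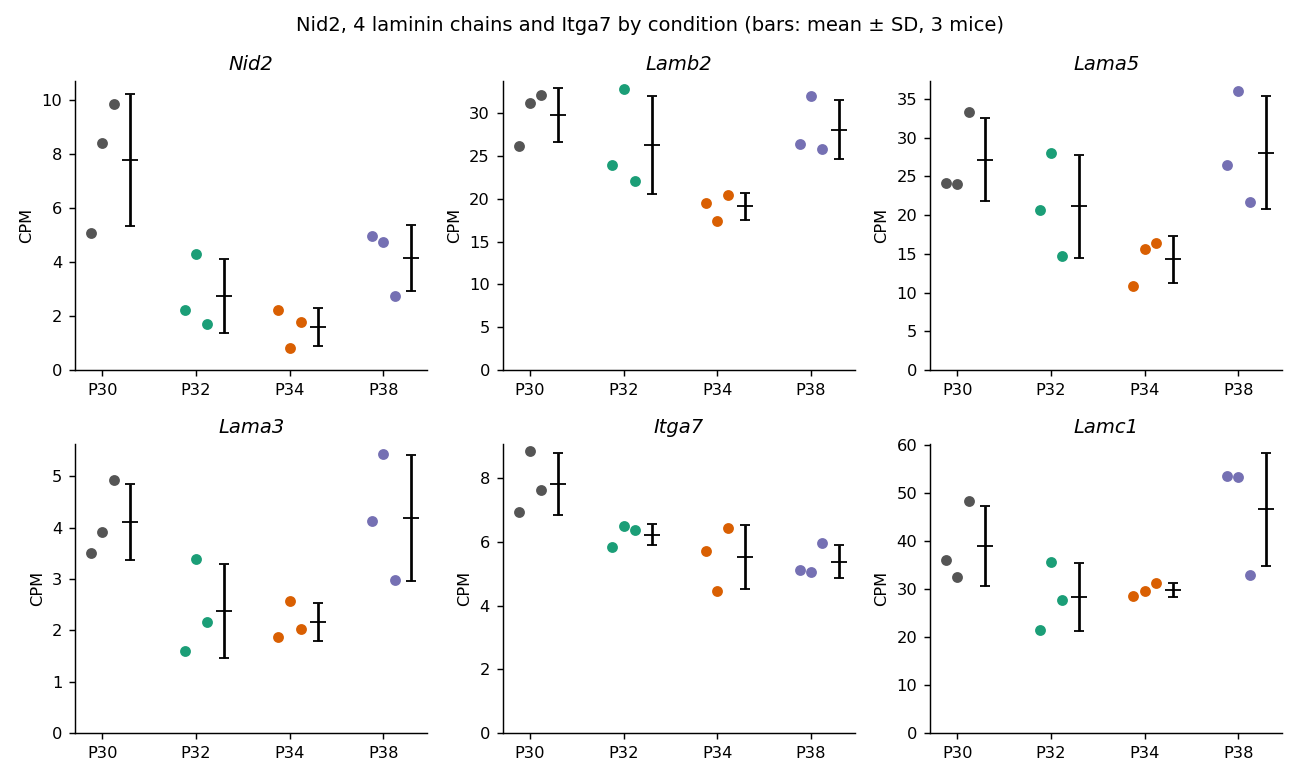
CPM of Nid2, 4 laminin chains and Itga7 by condition (vertical linear axes from 0). Points are mice, and bars beside them are mean ± SD of 3 mice. Nid2 is highest at P30 and lowest at P34, where its 3 mice lie between 0.833 and 2.21 CPM.

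Among the laminin alpha chains, the log2 fold change at P34 was negative for 4 of 5. edgeR called none of them, and DESeq2 called Lama5. Lama5, an alpha chain of vessel and epithelial basement membranes, was at 24.2, 24.0 and 33.4 CPM in the P30 mice and at 10.9, 15.7 and 16.4 CPM in the P34 mice, without overlap. Its log2 fold change was -0.92 ± 0.26, with an adjusted p of 0.222 by edgeR, 0.0381 by edgeR without a filter on low counts and 0.0339 by DESeq2. It was -0.55 ± 0.26 with the lens markers and -0.02 ± 0.45 with the ciliary and iris markers in the fit. Lama3, found in epithelial laminins, was at 3.50, 3.92 and 4.93 CPM at P30 and 1.88, 2.57 and 2.03 CPM at P34 (log2 fold change -0.92 ± 0.30, edgeR adjusted p = 0.293). It was also the member with the second lowest p at P32, where its mice had 1.59, 3.38 and 2.168 CPM (-0.78 ± 0.30, edgeR adjusted p = 0.698). Both genes were back within the P30 range or near it at P38, with 21.7 to 36.1 CPM for Lama5 and 2.99 to 5.44 CPM for Lama3. The remaining alpha chains at P34 were Lama2 (-1.55 ± 0.65), Lama1 (-0.68 ± 0.31) and the vascular chain Lama4 (0.15 ± 0.23). With the ciliary and iris markers in the fit, directions turned for Lama2 (1.93 ± 0.82), Lama1 (0.62 ± 0.49) and Lama4 (-0.08 ± 0.48), and likewise for Lamc1 (0.12 ± 0.42) and Itgb1 (0.21 ± 0.27).

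Of the beta and gamma chains, Lamb2 had the lowest p at P34, and it was called by DESeq2 but not by edgeR. Lamb2, the beta chain of the laminins of the retinal surface and the synapse, was at 26.2, 31.1 and 32.1 CPM at P30, and at 19.5, 17.4 and 20.4 CPM at P34. All 3 P34 mice were below all P30 mice, and also below the P32 and P38 mice, which were at 22.1 to 32.8 CPM. The log2 fold change at P34 was -0.64 ± 0.16, with an adjusted p of 0.131 by edgeR, 0.0392 by edgeR on the 2 conditions alone and 0.0192 by DESeq2. Lamc1, the gamma chain common to most laminins, was at 36.1, 32.4 and 48.3 CPM (P30), 21.5, 35.7 and 27.7 (P32), 28.5, 29.6 and 31.3 (P34) and 53.4, 53.3 and 32.9 CPM (P38). The P34 values were below those of P30, with a log2 fold change of -0.39 ± 0.22 (edgeR adjusted p = 0.575). Lamb3 and Lamc3, both under 4 CPM in every mouse, had log2 fold changes of -0.06 and 0.18.

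For the 13 laminins and nidogens the median log2 difference from P30 was -0.29 (P32), -0.64 (P34) and 0.09 (P38). Over all 36 members it was -0.36 at P34 and 0.04 at P38, beside -0.0013 and -0.0091 over all genes. Without P30 mouse 3 these member medians were -0.22 and 0.15. Negative values were found for 25 members at P34 and 15 at P38, against 50.2% and 51.8% of all genes. At P34, 7 of the 13 had all 3 values below those of P30. Over the 36 members this held for 10 (27.8%), against 9.67% of all genes tested, and the opposite order held for 2 members (Itga4 and Lamc3, 5.56%), against 10.4% of all genes. At an unadjusted p under 0.05 with the fold, 10 members were lower at P34 and none higher, against 5.42% and 0.854% of all genes. The 10 became 5 without P34 mouse 8 (beside 1309 of 19013 genes) and 4 with the lens markers in the fit (637 of 18628). With the ciliary and iris markers 1 member was lower and 2 higher, beside 1051 lower and 720 higher of 18628 genes.

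The 23 integrin subunits had median log2 differences from P30 of -0.15 (P32), -0.29 (P34) and -0.02 (P38), and edgeR called none at any age. Itgb1 was at 79.9, 67.0 and 91.9 CPM (P30), 60.3, 74.1 and 59.6 (P32), 68.3, 59.2 and 61.5 (P34) and 99.2, 80.0 and 65.0 CPM (P38). Ranges overlapped between all conditions, and the log2 fold change at P34 was -0.34 ± 0.16 (edgeR adjusted p = 0.502). Of the 4 laminin-binding subunits, all had negative values at P34 (-1.30 to -0.29, median -0.67). Itga6 turned to 0.31 ± 0.37 with the lens markers in the fit, and Itga6 and Itga3 to 1.35 ± 0.81 and 0.30 ± 0.29 with the ciliary and iris markers. Itga7, a laminin receptor subunit known from muscle, was at 6.94, 8.86 and 7.63 CPM (P30), 5.85, 6.48 and 6.36 (P32), 5.71, 4.46 and 6.43 (P34) and 5.12, 5.04 and 5.97 CPM (P38). It had the lowest p of the members at P38 (log2 fold change -0.54 ± 0.17, edgeR adjusted p = 0.847), where no gene was called (background 0.0% in both directions) where DESeq2 called no member (0.193% lower and 0.059% higher among its genes), and where at an unadjusted p under 0.05 with the fold 1 member was lower (background 2.66%) and none higher (background 0.805%). Itga7 and Nid2 were also the 2 members whose P38 mice all lay below the P30 mice (background 7.96%). The gene Mettl7b lies on the opposite strand of Itga7 and Rtraf on that of Nid2, and the option for strand in the authors' counting is not given in the sources used here. In the same counts Xist had 59313 to 114682 reads in the 7 females while Tsix, on its opposite strand, had 2 to 10 in any mouse.

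For the other integrin groups no member was called at P34 against P30 by edgeR or DESeq2. The 7 subunits of RGD-binding integrins had a median log2 fold change of -0.17, from -0.63 for Itgb5 to 0.28 for Itgb8. The 4 collagen-binding alpha subunits had a median of -0.21. Itga10, highest of them per kilobase, was at 1.80, 3.49 and 2.08 CPM (P30), 2.55, 2.76 and 2.12 (P32), 0.883, 1.27 and 1.90 (P34) and 1.24, 2.13 and 1.66 CPM (P38), and its P34 and P30 ranges overlapped (log2 fold change -0.87 ± 0.33 and edgeR adjusted p = 0.395 at P34). Itga9 had overlapping ranges, with 8.27 to 10.7 CPM at P30 and 9.35 to 11.8 at P34 (log2 fold change 0.11 ± 0.16, edgeR adjusted p = 0.874). Its relative Itga4, the alpha 4 subunit of VCAM1 and fibronectin receptors, was at 8.83 to 14.6 CPM at P30, 5.43 to 11.2 at P32, 14.7 to 15.7 at P34 and 10.2 to 17.2 at P38.

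The leukocyte integrins were low, with 6 to 49 counts per mouse for each of the 5 subunits. Itgb2, the subunit shared by leukocyte integrins, was at 0.605 to 0.861 CPM at P30, 0.270 to 0.838 at P32, 0.318 to 0.677 at P34 and 0.469 to 0.746 at P38, where 3 counts correspond to 0.0499 to 0.101 CPM. The log2 fold changes were -0.33 ± 0.40, -0.44 ± 0.41 and -0.34 ± 0.41 at P32, P34 and P38 (edgeR adjusted p = 0.778, 0.748 and 0.911), and a difference was not detectable at this depth. Over the 5 leukocyte subunits the median log2 fold change at P34 was 0.05. The sum of 6 microglia markers was 28.1 to 32.2 CPM at P30 and 28.7 to 40.9 CPM at P34. Markers of other leukocytes summed to 1.52 CPM or less in every mouse, with Cd3e, S100a8, Ly6g and Ccr2 at 0 in at least 1 mouse each.

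**Figure D3:**
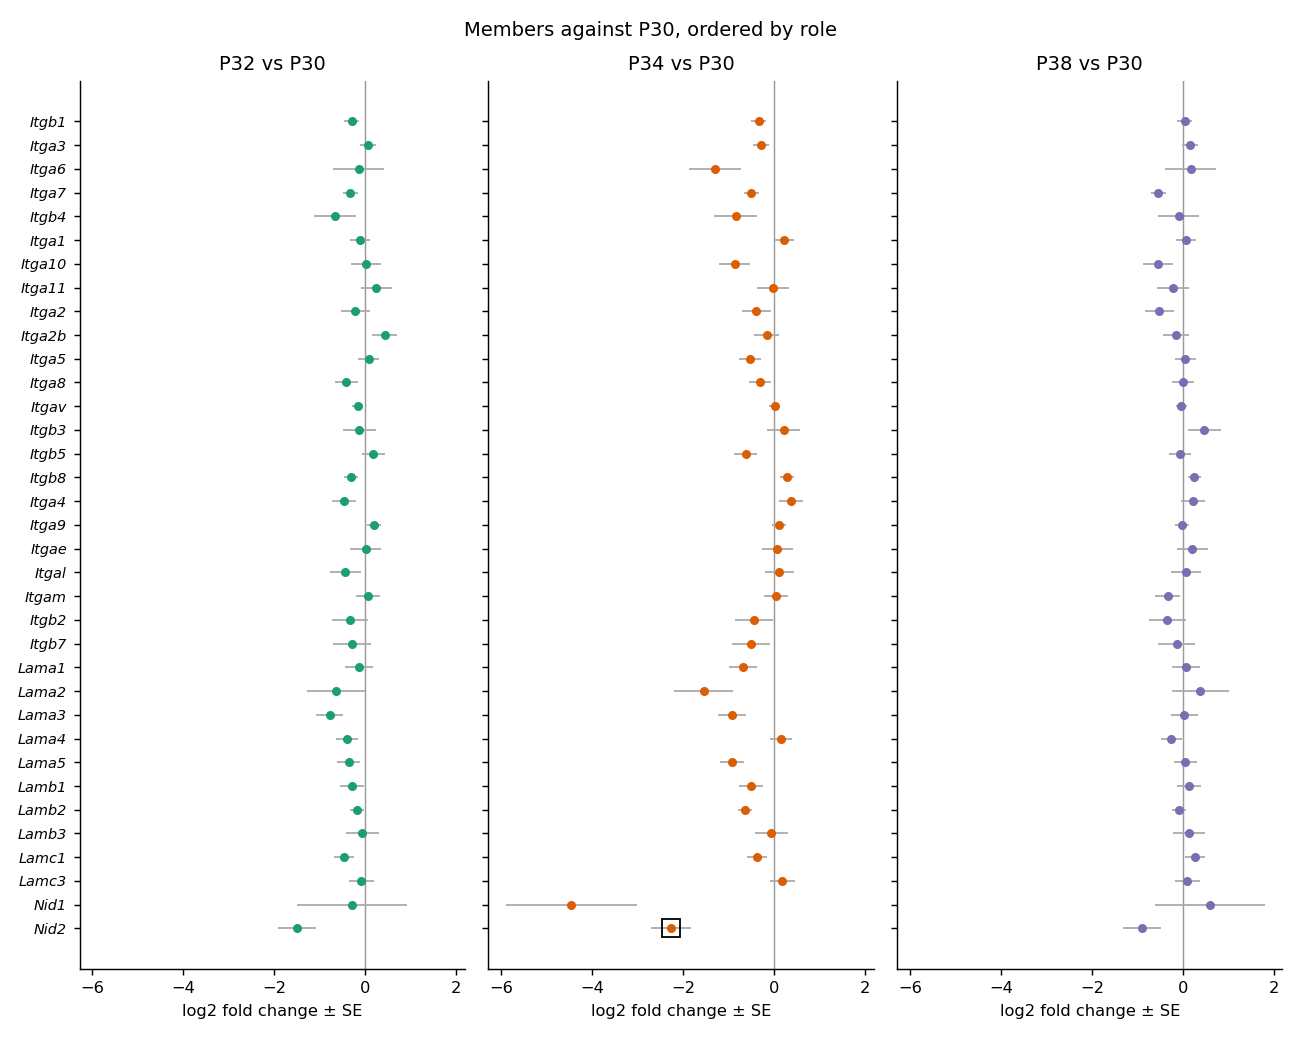
Log2 fold change of 35 members against P30 at P32, P34 and P38 (horizontal axes), ordered by role, with bars of ± 1 SE. The square marks Nid2 at P34 (-2.27), the only value called by edgeR. Nid1 has the largest value at P34 (-4.46) and the widest error.

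The largest difference at P34 was that of Nid1, which edgeR did not call and DESeq2 did. Nid1, the major nidogen of basement membranes (chr13:13437551-13512269 of GRCm38, plus strand), was at 97.5, 4.64 and 139 CPM in P30 mice 1, 2 and 3 and at 87.3, 108 and 2.59 CPM in P32 mice 4, 5 and 6. It was at 3.67, 3.04 and 4.30 CPM in P34 mice 7, 8 and 9 and at 204, 148 and 9.16 CPM in P38 mice 10, 11 and 12. Thus 6 mice were at 87.3 CPM or more and the other 6 at 9.16 CPM or less, with nothing between, and the low mice comprised all 3 at P34 and 1 of each other condition. The log2 fold change was -4.46 ± 1.44 at P34 (adjusted p = 0.293 by edgeR, 0.0375 by edgeR without a filter on low counts and 0.0469 by DESeq2), -0.28 ± 1.21 at P32 (adjusted p = 0.947) and 0.59 ± 1.21 at P38 (adjusted p = 0.954).

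The same 6 mice were the 6 highest for 8 members, Nid1 included: Itga3, Itga5, Itga6, Itgb5, Lama1, Lama2, Lamb1 and Nid1. That is 22.2% of the members, and 1.78% of all genes tested had the same 6 highest mice. This order was noticed in the data and is given as a description, and Itga6, Lama2 and Itgb8 are given by mouse although their values had been seen. Itga6, a laminin receptor subunit, was at 18.8, 5.49 and 30.7 CPM (P30), 21.7, 21.03 and 6.92 (P32), 7.84, 7.20 and 7.31 (P34) and 29.9, 21.6 and 10.1 CPM (P38). Lama2, the alpha chain of muscle and vessel laminins, was at 10.7, 4.70 and 18.8 CPM (P30), 7.17, 12.3 and 2.46 (P32), 4.28, 3.55 and 3.82 (P34) and 20.98, 19.0 and 4.41 CPM (P38). In both genes P30 mouse 2, P32 mouse 6 and P38 mouse 12 lay near the P34 mice rather than with their own condition.

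The distance between the high and the low mice differed among the 8 genes. Itgb5 was at 67.0 to 89.9 CPM in the higher 6 mice and at 37.8 to 49.0 CPM in the lower 6. Its values by age were 71.8, 49.0 and 67.1 CPM (P30), 89.9, 78.8 and 43.9 (P32), 43.2, 37.8 and 40.6 (P34) and 69.0, 67.0 and 43.1 CPM (P38) (log2 fold change -0.63 ± 0.25 at P34, edgeR adjusted p = 0.420). Itga3, highest per kilobase among the laminin-binding alpha subunits, was at 25.9, 20.0 and 26.4 CPM (P30), 22.9, 31.5 and 21.3 (P32), 20.8, 17.8 and 20.4 (P34) and 28.2, 29.9 and 22.2 CPM (P38). Its higher and lower mice nearly met, at 22.9 and 22.2 CPM, and its log2 fold change at P34 was -0.29 ± 0.17 (edgeR adjusted p = 0.583). For Lama1, the alpha chain of the classical laminin of early basement membranes, these bounds were 12.8 and 9.39 CPM, and for its beta chain partner Lamb1 they were 31.9 and 29.2 CPM.

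**Figure D4:**
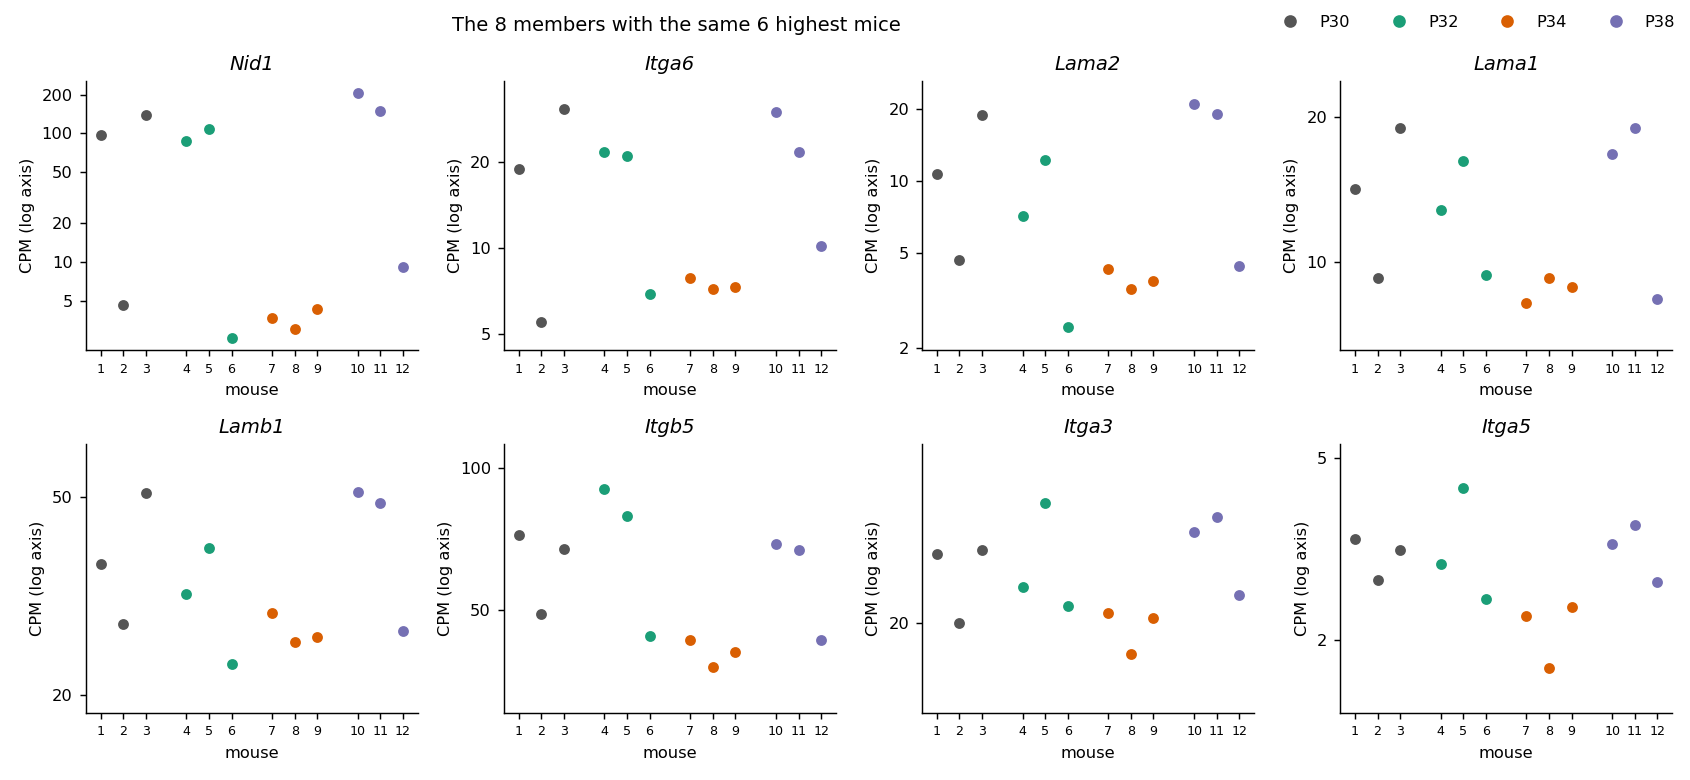
CPM by mouse (vertical log axes, mice 1 to 12 in the order of the 4 conditions) of the 8 members with the same 6 highest mice. Mice 1, 3, 4, 5, 10 and 11 are highest in each panel. The gap is widest for Nid1, between 87.3 and 9.16 CPM.

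Lens markers moved with these genes. Summed over 7 markers they were at 9346, 433 and 31220 CPM in P30 mice 1, 2 and 3, at 37000, 26970 and 592 CPM in P32 mice 4, 5 and 6, at 222, 604 and 460 CPM in P34 mice 7, 8 and 9 and at 11600, 4578 and 4726 CPM in P38 mice 10, 11 and 12. P30 mouse 2, P32 mouse 6 and the P34 mice were low for both. P38 mouse 12 had as much lens signal as mouse 11 but 9.16 CPM of Nid1 against 148. Of the 7 markers, 3 had the same 6 highest mice as Nid1. With the mean log2 CPM of the lens markers in the fit, a term added once the values were known, the log2 fold change of Nid1 at P34 was -0.38 ± 1.07 (edgeR adjusted p = 0.968) and that of Itgb5 -0.16 ± 0.23 (adjusted p = 0.934), and that of Lamb2 -0.55 ± 0.19 (adjusted p = 0.705). With the ciliary and iris markers in the fit, Lamb2 was at -0.21 ± 0.28 and Itgb5 turned to 0.71 ± 0.25 (edgeR adjusted p = 0.774 and 0.494). Over the 36 members the median at P34 was -0.11 with the lens markers and 0.11 with the ciliary and iris markers, where Nid1 was at 3.48 ± 1.74. The part of lens tissue in these results was not tested.

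**Figure D5:**
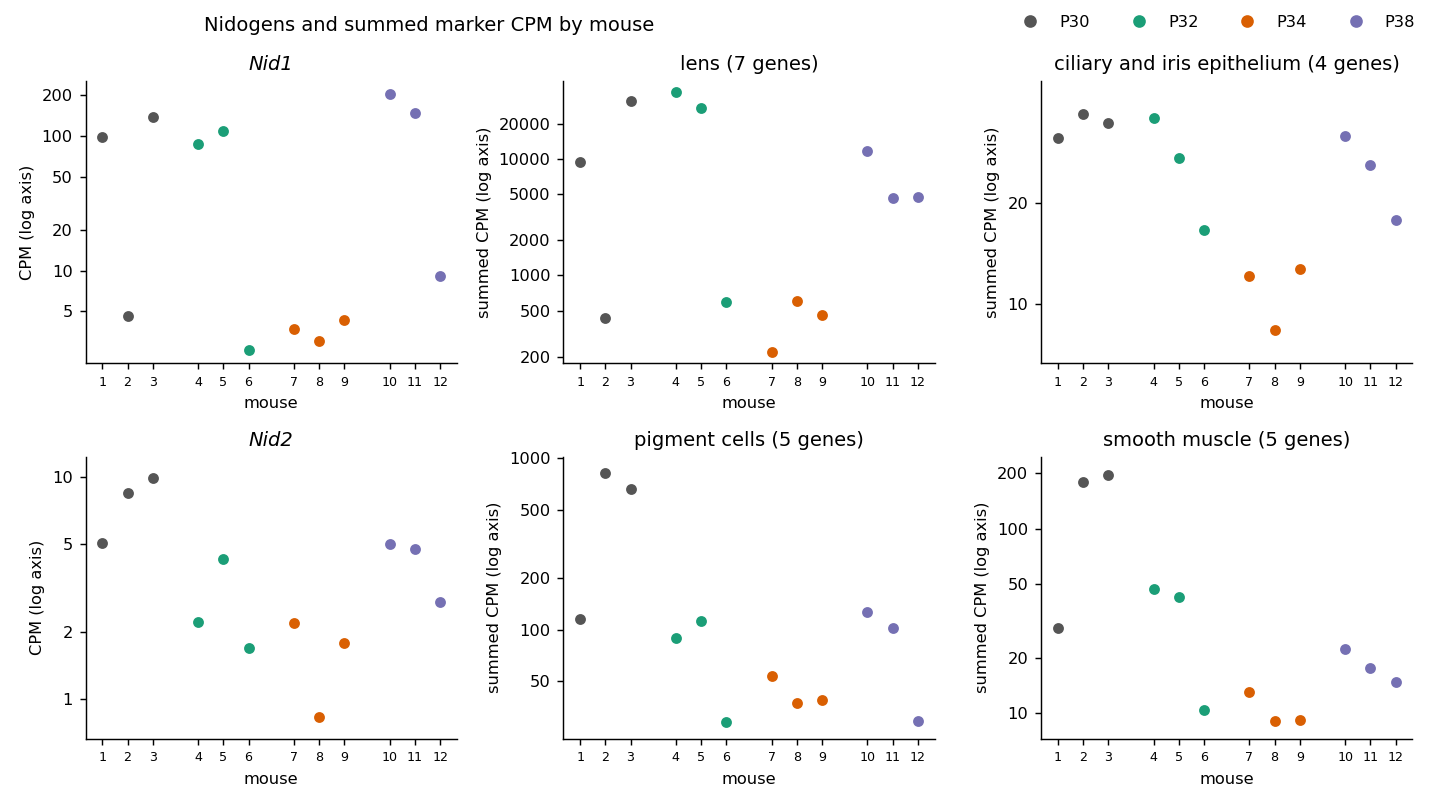
CPM of both nidogens and summed CPM of lens, ciliary and iris, pigment cell and smooth muscle markers by mouse (vertical log axes). Nid1 and lens markers are low in P30 mouse 2, P32 mouse 6 and the P34 mice. Nid2 is highest in P30 mice 2 and 3, as are the pigment cell and smooth muscle markers.

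Between cKO ages, edgeR called no member, and DESeq2 called some. For P34 against P32, 0 of 36 were called in either direction (background 0.242% lower and 0.0% higher), and at an unadjusted p under 0.05 with the fold 4 were lower (Itga10, Itga5, Itgb5 and Nid1) and 3 higher (Itga4, Itgb8 and Lama4), against 8.93% and 5.49% of all genes. The 4 became 9 without P32 mouse 6 (beside 2429 of 19062 genes), 7 without P34 mouse 9 (1481 of 19088) and 2 without P34 mouse 8 (1723 of 19013). Without P32 mouse 4 the 3 became 1 (433 of 18991). For P38 against P34, 0 of 36 were called (background 0.199% higher and 0.0% lower), and at the unadjusted p 12 were higher and none lower, against 3.01% and 0.8%. The 12 became 5 without P38 mouse 11 (beside 444 of 19070 genes), 6 without P34 mouse 8 (547 of 19013) and 7 without P38 mouse 10 (411 of 19090). With all mice, the 12 were both nidogens, 4 alpha, 2 beta and 1 gamma laminin chains, and Itga5, Itga6 and Itgb5. The median log2 fold change from P34 to P38 was 0.29 over all members and 0.65 over the laminins and nidogens, beside -0.0030 over all genes. The member median was 0.15 with the lens score in the fit, where 2 members were higher at the unadjusted p, beside 291 of 18628 genes. It turned to -0.05 with the ciliary and iris score, where 1 was higher and 2 lower, beside 792 and 640 of 18628 genes. In the values themselves, all 3 P38 mice were above all P34 mice for 10 members (background 5.36%). For P38 against P32, 0 of 36 were called (background 0.0%), and at the unadjusted p 4 were higher (background 5.68%) and none lower (background 6.23%). Those 4 became 1 without P32 mouse 4 (beside 485 of 18991 genes), 7 without P32 mouse 5 (1109 of 19055) and 2 without P38 mouse 11 (762 of 19070). DESeq2 called 2 members lower (Nid1 and Itgb5) and 2 higher (Itgb8 and Itga4) in P34 against P32, beside 4.77% and 3.32% of the genes to which it gave an adjusted p. It called 2 higher in P38 against P34 (Nid1 and Lama5, beside 0.661%) and 2 higher in P38 against P32 (Itgb8 and Lamc1, beside 2.85%). These comparisons share the P34 or P32 mice with those above and are not independent of them.

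The subunit Itgb8, the partner of alpha v in activating latent TGF-beta, is described by mouse after its values were seen. It was at 35.6, 35.7 and 47.7 CPM (P30), 26.5, 33.0 and 36.4 (P32), 50.9, 45.4 and 48.0 (P34) and 53.1, 46.8 and 41.3 CPM (P38). The lowest value was that of P32 mouse 4, which also stood apart on the first principal component, and the P30 and P32 ranges overlapped. The log2 fold change was 0.59 ± 0.15 for P34 against P32 (adjusted p = 0.0948 by edgeR and 0.0111 by DESeq2) and 0.56 ± 0.15 for P38 against P32 (adjusted p = 0.114 by edgeR and 0.0209 by DESeq2). In the edgeR test over the 4 conditions at once, no member passed (0 of 36, background 0.344%), and 10 members had an unadjusted p under 0.05 (background 17.2%). The lowest adjusted p was that of Nid2 (0.142). DESeq2's likelihood ratio test called 5 (Itgb8, Lama3, Lama5, Lamb2 and Nid2), and 6.83% of the genes to which it gave an adjusted p.

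Other genes of the pathway were taken from lists by role. Of 24 other basement membrane genes, 3 were lower at P34 and none higher by edgeR, against 0.66% and 0.0% of all genes: Fbln1 and Fbln2, fibulins that bind laminin and nidogen, and Col18a1, the source of endostatin. Fbln1 was at 79.4, 81.9 and 79.3 CPM at P30 and 3.73, 1.62 and 2.504 CPM at P34 (log2 fold change -4.94 ± 0.40, edgeR adjusted p = 0.000265). Col18a1 was at 89.5, 92.9 and 104 CPM at P30 and 20.2, 21.5 and 19.9 CPM at P34 (-2.22 ± 0.26, edgeR adjusted p = 0.00201). Fbln2 was at 3.33, 3.67 and 5.38 CPM at P30 and 1.02, 0.979 and 1.252 CPM at P34 (-1.93 ± 0.29, edgeR adjusted p = 0.00982). None of the 3 overlapped between these ages. The list had a median log2 fold change of -1.14 at P34, and 10 of its 24 genes had the same 6 highest mice as Nid1. At P32 and P38 none of the 24 was called, and from P34 to P38 Col18a1 and Fbln1 were higher (1.79 ± 0.26 and 4.08 ± 0.39, edgeR adjusted p = 0.0150 and 0.00114). With the ciliary and iris markers in the fit none of these calls remained, in a fit where edgeR called 2 of all 18628 genes lower at P34 and 0 higher from P34 to P38: Fbln1 was at -3.40 ± 0.45, Col18a1 at -1.31 ± 0.43 and Fbln2 at -1.23 ± 0.54 at P34 (edgeR adjusted p = 0.0510, 0.494 and 0.494), and Fbln1 at 2.80 ± 0.38 and Col18a1 at 1.02 ± 0.37 from P34 to P38 (edgeR adjusted p = 0.0735 and 0.524). With the lens markers 2 calls were lost: Fbln2 at P34 (-1.655 ± 0.33, edgeR adjusted p = 0.0954) and Col18a1 from P34 to P38 (1.525 ± 0.28, edgeR adjusted p = 0.140). In that fit 0.285% of all genes were called lower at P34 and 0.0698% higher from P34 to P38. The most abundant of the list per kilobase, Sparc and Egflam (pikachurin), had log2 fold changes of -0.69 ± 0.29 and 0.33 ± 0.15 at P34 and were not called.

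Of 16 tested genes for other integrin ligands (from 19 listed names, with Cyr61 and Ctgf also entered as Ccn1 and Ccn2), 1 was lower at P34 and none higher. Fbn1, which encodes fibrillin 1, was at 55.0, 67.1 and 69.0 CPM at P30 and 13.5, 17.5 and 15.8 CPM at P34 (log2 fold change -2.03 ± 0.23, edgeR adjusted p = 0.00158). With the ciliary and iris markers in the fit it was -1.89 ± 0.46 (edgeR adjusted p = 0.494), and with the lens markers -1.98 ± 0.27 (edgeR adjusted p = 0.0110). Vtn and Mfge8, the most abundant ligands and both bound by alpha v integrins, had log2 fold changes of 0.16 ± 0.18 and 0.06 ± 0.14. Of 8 other laminin receptors 0 were called at P34, with a median of -0.23, and of 27 tested genes for the adhesion machinery inside the cell (of 28 listed) 0 were called, with a median of -0.16. At an unadjusted p under 0.05 with the fold, 12 of the 24 basement membrane genes, 2 of the 16 ligands, 1 of the 8 receptors and 2 of the 27 genes inside the cell were lower, against 5.42% of all genes. Against P30, edgeR called no gene of these lists at P32 or P38. From P34 to P38 it called Fbn1 higher (1.65 ± 0.23, edgeR adjusted p = 0.0123), in addition to Col18a1 and Fbln1. The call of Fbn1 was lost with the lens markers (1.61 ± 0.28, edgeR adjusted p = 0.0955) and with the ciliary and iris markers (1.54 ± 0.40, edgeR adjusted p = 0.524). Those fits called 13 and 0 of all 18628 genes higher.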

How the data were processed

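Raw counts per gene from 12 retinas were used as the authors deposited them. Per the authors' methods and processing notes, TruSeq stranded mRNA libraries gave single reads of 50 bases, demultiplexed with bcl2fastq 2.17.1.14, aligned to mm10 with STAR 2.5.3a and counted with HTSeq 0.6.1p1 in union mode against Ensembl 93. The strand option is not given in the sources used here. Reads at several positions were not counted, which can lower genes with close copies. Names, positions and exon lengths came from GENCODE M21, which named 99.9% of the genes.

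Genes kept by filterByExpr (18628) were fitted with edgeR 4.0.16 (R 4.3.3, TMM, quasi-likelihood), all 12 mice in 1 fit with a mean per condition, and the 6 pairs of conditions and all 4 at once were tested. SEs are the log2 fold change over the root of F. On simulated counts for P34 against P30, 95 of 100 genes changed by 2 on the log2 scale and 69 of 100 changed by 1 were recovered, with 5 unchanged genes called among 18410 tested. The changed genes were drawn from those with a mean above 1 CPM, so the rates do not cover members below that level. Each gene was simulated on its own, without the tissue differences shared between genes. A depth of 29701483 to 60145034 counts makes 3 counts 0.0499 to 0.101 CPM. Replicates differed by more than sampling noise.

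Members and lists were chosen with earlier results of these data known. Values by mouse were given for called members, the highest per kilobase in each role and the 3 lowest p-values against P30 at each age. Partner genes were named where called, with the 2 highest of each list. Alternatives were other scaling, filters, dispersion, thresholds and lengths, DESeq2 1.42.0, sex, fewer conditions and leaving out each mouse. Marker covariates were added after seeing the data. Lines for reads without a gene were left out. The values of 1 member are not reported here, but it is kept in the counts and medians.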

Additional observations from a re-analysis of the deposited data

How the results depend on the processing

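At P34 against P30, edgeR called 1 member lower. This became 3 without a filter on low counts (Nid1, Lama5 and Nid2, beside 0.865% of all genes), 2 with only the 2 conditions compared (Nid2 and Lamb2, beside 1.27%) and 4 with DESeq2 (Nid1, Lama5, Nid2 and Lamb2, beside 1.58%). It became 0 with sex (0.762%), with the lens score (0.285%) or with the ciliary and iris score (0.0107%, 2 genes) as a covariate, and ranged from 0 to 1 when each mouse was left out. At P34 against P32, 0 members lower became 2 without a filter (425 of 33982 genes) and 2 with DESeq2 (4.77%) and ranged from 0 to 4 over the mice left out, and 0 higher became 1 without a filter (0.68%) and 2 with DESeq2 (3.32%) and ranged from 0 to 2. The 4 and the 2 came without P32 mouse 6, where 6.87% of all genes were lower and 7.43% higher. At P38 against P34, 0 higher became 2 without a filter (0.33%) and 2 with DESeq2 (0.661%). At P38 against P32, 0 higher became 2 with DESeq2 (2.85%) and ranged from 0 to 2, the 2 without P32 mouse 6 (6.52%). Over the 4 conditions at once, 0 became 1 without a filter (1.22%), 5 with DESeq2 (6.83%) and 1 without P32 mouse 6 (3.08%), with a range of 0 to 1. The cause was not tested. Nid2 at P34, the only value called by edgeR as reported, kept its sign, while 79 values of named members that were not called and 8 medians over members changed sign under an alternative. The median over members at P34 against P30 was -0.11 with the lens score and 0.11 with the ciliary and iris score. No paired analysis was possible because the conditions share no mouse numbers. Depth limits most the members with few counts, such as Itgb7 (6 to 20 counts per mouse) and Itgal (11 to 26).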

Other observations

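Among all genes, 331 had the same 6 highest mice as Nid1. These genes were picked after their values were seen. Col4a1, a chain of collagen IV, was at 373 to 834 CPM in those 6 mice and 31.4 to 60.4 CPM in the other 6. Hspg2, which encodes perlecan, was at 45.1 to 159 CPM and 4.38 to 8.11 CPM. These are values only, with no test on the 6 mice.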
